A study of Caenorhabditis elegans with 9 samples.

Results

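The comparison described here set worms depleted of RPOA-2 in the hypodermis against worms depleted of it globally. Its members are the 3 hypodermal libraries and the 2 global libraries, both taken at 24 h, and they make up 5 of the 9 libraries of the study. The hypodermal group carried degron::GFP::rpoa-2 with col-10p::TIR1 and was kept on 1 mM of the auxin IAA for 24 h. The global group carried degron::GFP::rpoa-2 with eft-3p::TIR1 and was also kept on 1 mM IAA for 24 h. The controls carried degron::GFP::rpoa-2 without IAA, with 2 libraries at 24 h and 2 at 18 h, and their labels name no TIR1. Both depleted groups thus shared the tagged rpoa-2 allele, a TIR1 transgene and IAA, and differed in the promoter that drives TIR1. TIR1 is the plant protein that, with auxin, marks a degron-tagged protein for destruction, so the tissue in which the promoter is active sets where RPOA-2 could be lost. The amount of RPOA-2 protein left in either strain was not measured in these libraries. Worms were grown at 16 °C from synchronized eggs, and RNA of whole worms was sequenced after removal of ribosomal RNA. The sample titles say embryo, and the stage at harvest is not given.

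RNA polymerase I transcribes the precursor of the large ribosomal RNAs, and RPOA-2 is its second-largest subunit. Ribosomal RNA is assembled with ribosomal proteins in the nucleolus by a large set of biogenesis factors. The hypodermis is the epidermis of the worm, which secretes the collagens and matrix proteins of the cuticle and renews them at each molt, whereas the intestine digests food, stores fat and secretes many proteins, among them proteases, lysozymes and immune effectors. With eft-3p::TIR1 the intestine, muscle, pharynx and nervous system could lose RPOA-2 along with the hypodermis, because the eft-3 promoter is used to drive expression in most somatic tissues.

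The measurement was a whole-number count per gene over coding sequence. Totals were 2134185, 1518298 and 781648 in the hypodermal libraries and 1298047 and 1084894 in the global libraries, and 324321 and 506659 in the 24 h controls. The table lists no count below 3, and a gene with a lower count in a library is called unlisted in it. On the scale of CPM (counts scaled to a total of 1e+06, with TMM factors) the floor of 3 counts stood at 1.45, 2.01 and 3.87 in the hypodermal libraries and at 2.29 and 2.63 in the global libraries, against 8.997 and 5.90 in the 24 h controls. Of 13019 genes listed in at least 1 of the 5 depleted libraries, the 11464 listed in at least 2 were tested, and 8548 were listed in all 5. Of the 11464 genes, 2379 were unlisted in both 24 h controls and 1938 in all 4 controls, so the comparison between the depletions reached genes that the controls did not resolve. These floors cover counting error only. Whether the libraries of 1 group stem from different cultures is not labelled, and the p-values therefore refer to library-to-library spread, which may be technical. For a typical gene that spread was set by pooling over all genes, and hardly by its own 5 libraries. The median prior degrees of freedom were 981.1, against 3 residual. Very small p-values from 3 against 2 libraries rest on this pooling. In whole worms, fewer cells of a type and less RNA per cell cannot be told apart.

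Hypodermal and global depletion gave different levels for 507 of the 11464 genes tested (4.42%, edgeR's quasi-likelihood test with Benjamini-Hochberg adjusted p below 0.05). In hypodermal depletion 317 genes were higher (2.77%) and 190 were lower (1.66%) than in global depletion, and 1627 had an unadjusted p below 0.05. Of the calls, 237 higher and 110 lower genes differed by more than 2-fold, and 75 and 47 by more than 4-fold. The groups did not overlap for 503 of the 507 called genes, against 30.8% of all genes tested. The median log2 fold change, hypodermal over global, was -0.01 over all genes, with 49.3% above 0, so the genes as a whole were centred near 0. The balance of the calls depended on the scaling. With total-count scaling alone, 263 genes were higher and 247 lower, which put 51.6% of the calls above 0 in place of 62.5%.

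Leaving out 1 library also leaves fewer samples, so a call lost in such a fit need not rest on that library. The count of calls fell in each of these fits. It was 500 without hypodermal replicate 1, 333 without hypodermal replicate 2, 271 without hypodermal replicate 3, 224 without global replicate 1 and 221 without global replicate 2. Of the 507 calls, 141 were kept in each of these 5 fits (93 higher and 48 lower), and 41 were kept in none. Principal component 1 held 55.7% of the variance over 5451 genes and placed the hypodermal libraries at -9.69, -13.1 and -25.2 and the global libraries at 23.3 and 24.6. Component 2 held 19.4% and placed hypodermal replicate 3, the shallowest of the 5 libraries, at -17.4, apart from hypodermal replicates 1 and 2 at 15.9 and 8.42. For the genes below, a call is described as kept where it passed in all 5 fits that left out 1 library, and otherwise the library without which it was lost is named. Genes beyond the leading genes and the 3 of smallest p in each list were picked after their values were seen.

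**Figure D1:**
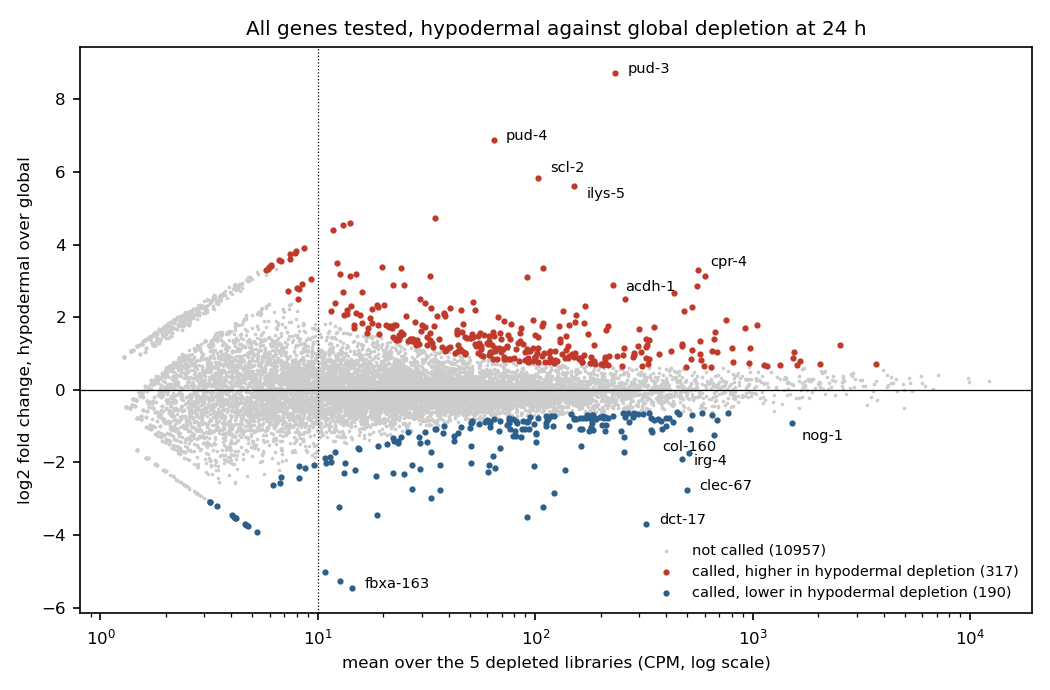
Fitted log2 fold change (hypodermal over global depletion, vertical axis) of the 11464 genes tested against their mean CPM over the 5 depleted libraries (horizontal axis, log scale). Red points are the 317 genes higher in hypodermal depletion, blue points the 190 lower ones and grey points the genes not called, with the dotted line at 10 CPM. The calls lie mostly to the right of that line, and the bands of grey points at the left edge are genes unlisted in one group.

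The share of genes called moved with their level. Among genes with a mean of at least 10 CPM over the 5 libraries, 471 of 7295 were called (6.46%), and among the weaker genes 36 of 4169 (0.864%), with 18 higher and 18 lower. No gene of 1475 below 3 CPM was called. The smallest absolute log2 fold change among the calls was 2.08 between 3 and 10 CPM, 1.17 between 10 and 30 CPM, 0.75 between 30 and 100 CPM and 0.62 above 100 CPM. The share called was 1.34% between 3 and 10 CPM, 3.21% between 10 and 30 CPM, 6.44% between 30 and 100 CPM and 11.9% above 100 CPM, and these shares stand beside the 4.42% of all genes as the background for the gene lists below. The 36 weak calls fell to between 6 and 14 when 1 library was left out (6 without global replicate 2, 9 without global replicate 1 or hypodermal replicate 3, 10 without hypodermal replicate 2 and 14 without hypodermal replicate 1), and none of them was kept in all 5 fits.

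The first check concerned the targeted gene and the 2 genes whose promoters drive TIR1. Transcripts of rpoa-2 (chromosome I, 9280963 to 9286577, WBcel235) stood at 292, 279 and 237 CPM in the hypodermal libraries, against 359 and 377 CPM in the global libraries, and at 147 and 254 CPM in the 24 h controls. The 2 depleted groups did not overlap, with the hypodermal values below the global ones, but the difference did not pass the test (log2 fold change -0.44 ± 0.20, adjusted p = 0.267). The degron acts on the protein, so the transcript does not report on depletion. For eef-1A.1, the translation elongation factor gene once named eft-3, the values were 11175, 9333 and 11205 CPM in the hypodermal libraries, against 9439 and 7428 CPM in the global libraries (log2 fold change 0.33, adjusted p = 0.534), and the groups overlapped. The cuticle collagen gene col-10 stood at 446, 416 and 444 CPM in the hypodermal libraries, against 504 and 381 CPM in the global libraries (log2 fold change -0.02, adjusted p = 0.977), and these also overlapped. Of the 15 marker genes of hypodermis and seam, all were tested and none was called. Their values ran up to 2919, 2050.2 and 1409.9 CPM in the hypodermal and 2000.5 and 1648 CPM in the global libraries for vab-10, a spectraplakin. The furrow collagen dpy-7 was near the floor, listed in 1 hypodermal library at 4.84 CPM and in 1 global library at 2.63 CPM, against 32.99 and 23.6 CPM in the 24 h controls, and the matrix transport gene che-14 was as sparse.

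Hypodermal depletion showed 8 leading genes in the higher direction, among them pud family genes, secreted protein genes and genes of metabolic enzymes. The gene pud-3 (chromosome V, 2324510 to 2326827), one of a family first found as proteins raised in daf-2 mutants, had 284, 431 and 446 CPM in the hypodermal libraries and was unlisted in both global libraries and both 24 h controls. It was at least 157-fold higher in hypodermal depletion (adjusted p = 5.38e-69). The adjacent family member pud-4, at 2326678 to 2327262 on the same chromosome, had 103, 108 and 108 CPM in the hypodermal libraries and was also unlisted in both global libraries, and so was at least 43.3-fold higher (adjusted p = 1.27e-33). The 2 transcripts overlap by position, and strand use in the counting is not given, so their counts cannot be kept fully apart. The SCP-family secreted protein gene scl-2 had 144, 147 and 217 CPM in the hypodermal libraries, against 4.57 CPM in global replicate 1 and no listed count in global replicate 2 (log2 fold change 5.83 ± 0.40, adjusted p = 2.75e-40). Its 24 h control libraries stood at 17.995 and 15.7 CPM, below every hypodermal library. The invertebrate-type lysozyme gene ilys-5 had 205, 277 and 259 CPM in the hypodermal libraries, against 3.05 and 7.02 CPM in the global libraries (log2 fold change 5.62 ± 0.35, adjusted p = 6.04e-48). Here the 24 h controls, at 168 and 110.1 CPM, lay below every hypodermal library but far above the global libraries, which were the low ones.

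The other 4 leading genes of this direction were scarce in global depletion. The aldehyde dehydrogenase family gene alh-13 had 53.3, 71.1 and 43.9 CPM in the hypodermal libraries, against 3.05 CPM in global replicate 1 and no listed count in global replicate 2 (log2 fold change 4.74 ± 0.52, adjusted p = 2.36e-16), and 59.98 and 47.2 CPM in the 24 h controls. The other 3 were unlisted in both global libraries. The C-type lectin gene clec-170 had 8.24, 26.8 and 33.5 CPM in the hypodermal libraries, at least 9.29-fold higher (adjusted p = 1.86e-06), and 17.995 and 13.8 CPM in the 24 h controls. The lipase-related gene lips-11 had 20.3, 20.1 and 23.2 CPM in the hypodermal libraries, at least 8.63-fold higher (adjusted p = 2.06e-06), and was unlisted in both 24 h controls. The phosphate transporter gene pitr-5 had 14.5, 25.5 and 16.8 CPM in the hypodermal libraries, at least 7.69-fold higher (adjusted p = 1.16e-05), and 14.996 and 7.86 CPM in the 24 h controls. The span of pitr-5 overlaps that of F09G2.8, so the counts of these neighbours are uncertain.

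In the lower direction, 3 leading genes were unlisted in all 3 hypodermal libraries and in both 24 h controls. The F-box gene fbxa-163 (chromosome II, 1609256 to 1610715) had 30.5 and 38.6 CPM in the global libraries and was at least 14.1-fold lower in hypodermal depletion (adjusted p = 8.53e-13). T16G12.4 had 29.7 and 30.7 CPM in the global libraries and was at least 12.4-fold lower in hypodermal depletion (adjusted p = 6.14e-11). Y82E9BL.18 had 19.8 and 31.6 CPM in the global libraries and was at least 10.5-fold lower (adjusted p = 7.48e-09). The other 5 were listed in at least 1 hypodermal library. For dct-17 (chromosome V, 13727765 to 13730776) the values were 54.3, 53.6 and 60.6 CPM in the hypodermal libraries, against 686 and 764 CPM in the global libraries, and 23.99 and 47.2 CPM in the 24 h controls (log2 fold change -3.70 ± 0.22, adjusted p = 1.11e-52). M01G12.9 had 15.5, 13.4 and 27.1 CPM in the hypodermal libraries, against 175 and 225 CPM in the global libraries (log2 fold change -3.51 ± 0.27, adjusted p = 2.6e-33), and its only listed control at 24 h stood at 17.995 CPM. ZK938.3 had 4.36, 2.68 and 3.87 CPM in the hypodermal libraries, against 41.2 and 41.2 CPM in the global libraries (log2 fold change -3.46 ± 0.49, adjusted p = 7.29e-10), and was unlisted in both 24 h controls.

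The last 2 genes of this group, T24B8.5 and C17H12.8, are targets of the p38 immune pathway of the intestine. T24B8.5 had 5.33 CPM in hypodermal replicate 1, was unlisted in hypodermal replicates 2 and 3, and had 30.5 and 24.6 CPM in the global libraries (log2 fold change -3.24 ± 0.57, adjusted p = 2.47e-06). C17H12.8, which codes for a protein with a CUB-like domain, had 22.8, 26.1 and 27.1 CPM in the hypodermal libraries, against 231 and 235.2 CPM in the global libraries (log2 fold change -3.22 ± 0.25, adjusted p = 3.21e-32), and its 24 h controls stood at 23.99 and 27.5 CPM, beside the hypodermal libraries. Groups without overlap were a condition for the choice of all 16 leading genes, 8 in each direction. They were called in every alternative fit that tested them, but they were chosen as the largest calls, so this gives no separate support. The fit of genes listed in all 5 libraries did not test those with an unlisted library. Genes unlisted throughout 1 group entered the test only through the other group.

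**Figure D2:**
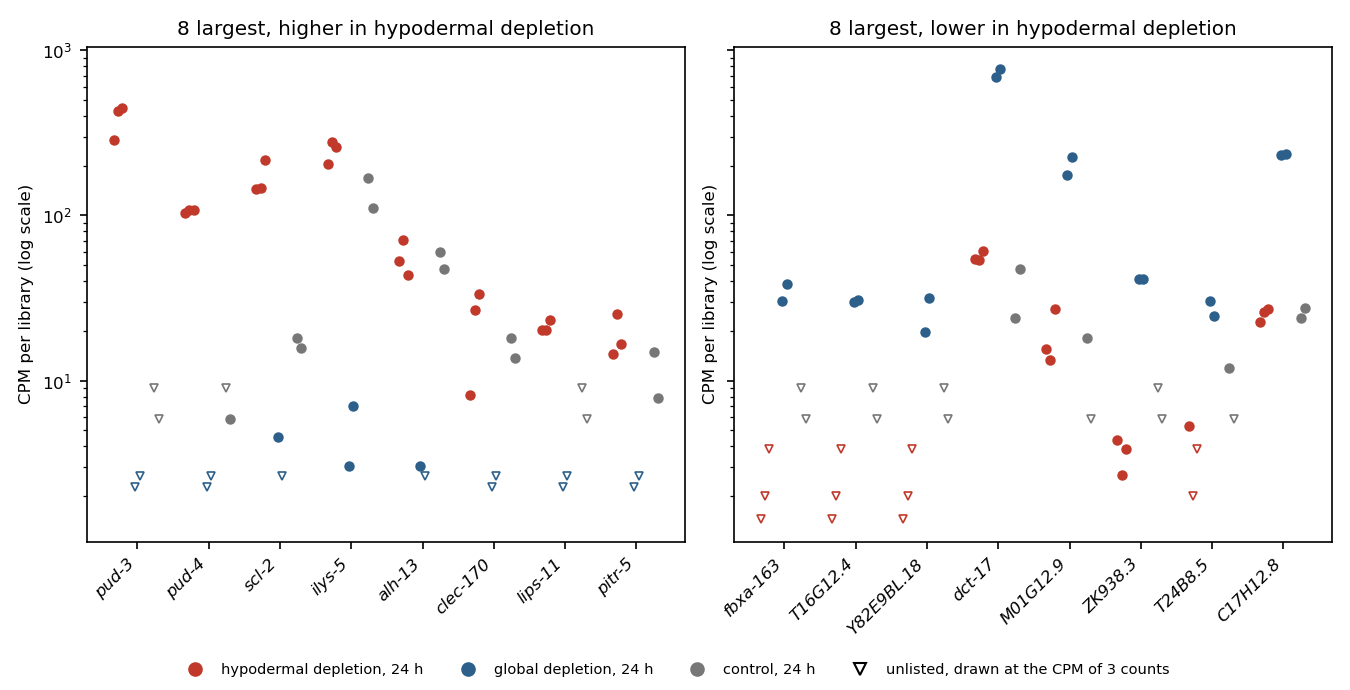
CPM per library (vertical axis, log scale) of the 16 leading genes, 8 higher (left panel) and 8 lower (right panel) in hypodermal than in global depletion, with hypodermal libraries in red, global libraries in blue and 24 h controls in grey. Open triangles mark unlisted libraries, drawn at the CPM of 3 counts. The genes were chosen for groups that do not overlap, so red and blue are apart by choice. For ilys-5 and C17H12.8 the grey control points lie nearer the red points than the blue ones.

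In a list of genes of translocation into the endoplasmic reticulum (ER), folding and stress signalling there, 13 of 24 were higher in hypodermal depletion. None was lower (54.2% called, against 4.42% of all genes), and the median log2 fold change was 0.86, against -0.01 over all genes. The differences did not extend to all such genes. Of 5 tested genes of signal peptidase and the signal recognition particle none was called, with a median of 0.20. Of 5 tested oligosaccharyltransferase genes 2 were higher, with a median of 0.95. These 2 sets were picked after their values were seen. In the worm, as in other animals, secreted and membrane proteins enter the ER through the SEC61 channel, assisted by the translocon-associated proteins (TRAP), and are folded there by BiP, endoplasmin, calreticulin and protein disulfide isomerases. All 4 TRAP subunit genes were higher. The first of them, trap-1 (chromosome I, 2928395 to 2929687), had 203, 181.7 and 279.9 CPM in the hypodermal libraries, against 61.8 and 42.1 CPM in the global libraries (log2 fold change 2.07 ± 0.25, adjusted p = 5.23e-14). The second, trap-2, had 111.9, 131 and 174 CPM in the hypodermal libraries, against 35.1 and 36.9 CPM in the global libraries (log2 fold change 1.93 ± 0.27, adjusted p = 2.74e-10). The channel gene sec-61 had 813, 754 and 1169.9 CPM in the hypodermal libraries, against 352 and 252 CPM in the global libraries (log2 fold change 1.59 ± 0.21, adjusted p = 7.08e-11). In each of these the lowest hypodermal library was more than 2-fold above the highest global library, and the 24 h controls of sec-61, at 1263 and 1065 CPM, were above the global libraries as well.

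The folding enzymes showed smaller differences of the same direction. The disulfide isomerase gene pdi-2, whose product is also a subunit of collagen prolyl hydroxylase, had 823, 864 and 971 CPM in the hypodermal libraries, against 365 and 299 CPM in the global libraries (log2 fold change 1.41 ± 0.21, adjusted p = 8.22e-09). The endoplasmin gene enpl-1 had 1234, 1190.1 and 1304 CPM in the hypodermal libraries, against 560.4 and 561 CPM in the global libraries (log2 fold change 1.15 ± 0.21, adjusted p = 5.75e-06). The BiP gene hsp-3 had 2123, 1808 and 1922 CPM in the hypodermal libraries, against 947 and 939 CPM in the global libraries (log2 fold change 1.05 ± 0.21, adjusted p = 5.16e-05). For all 3 the 24 h controls lay above both global libraries, at 1044 and 849 CPM for pdi-2, 1209 and 1238 CPM for enpl-1 and 2066 and 1796 CPM for hsp-3. The genes that report or transmit ER stress did not pass the test. The stress-inducible BiP gene hsp-4 had 135, 162 and 133 CPM in the hypodermal libraries, against 152 and 129.9 CPM in the global libraries (log2 fold change 0.03, adjusted p = 0.977), with overlapping groups. The log2 fold changes of the sensors ire-1, pek-1 and atf-6 and of the transcription factor xbp-1 were -0.27, -0.47, 0.30 and 0.19 (adjusted p from 0.288 to 0.809), and that of calnexin, cnx-1, was -0.03 (adjusted p = 0.975). The count of higher members was 8 without global replicate 2 and at least 9 without any other library. The 7 calls kept throughout were trap-1, trap-2, trap-3, sec-61, pdi-2, enpl-1 and hsp-3.

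**Figure D3:**
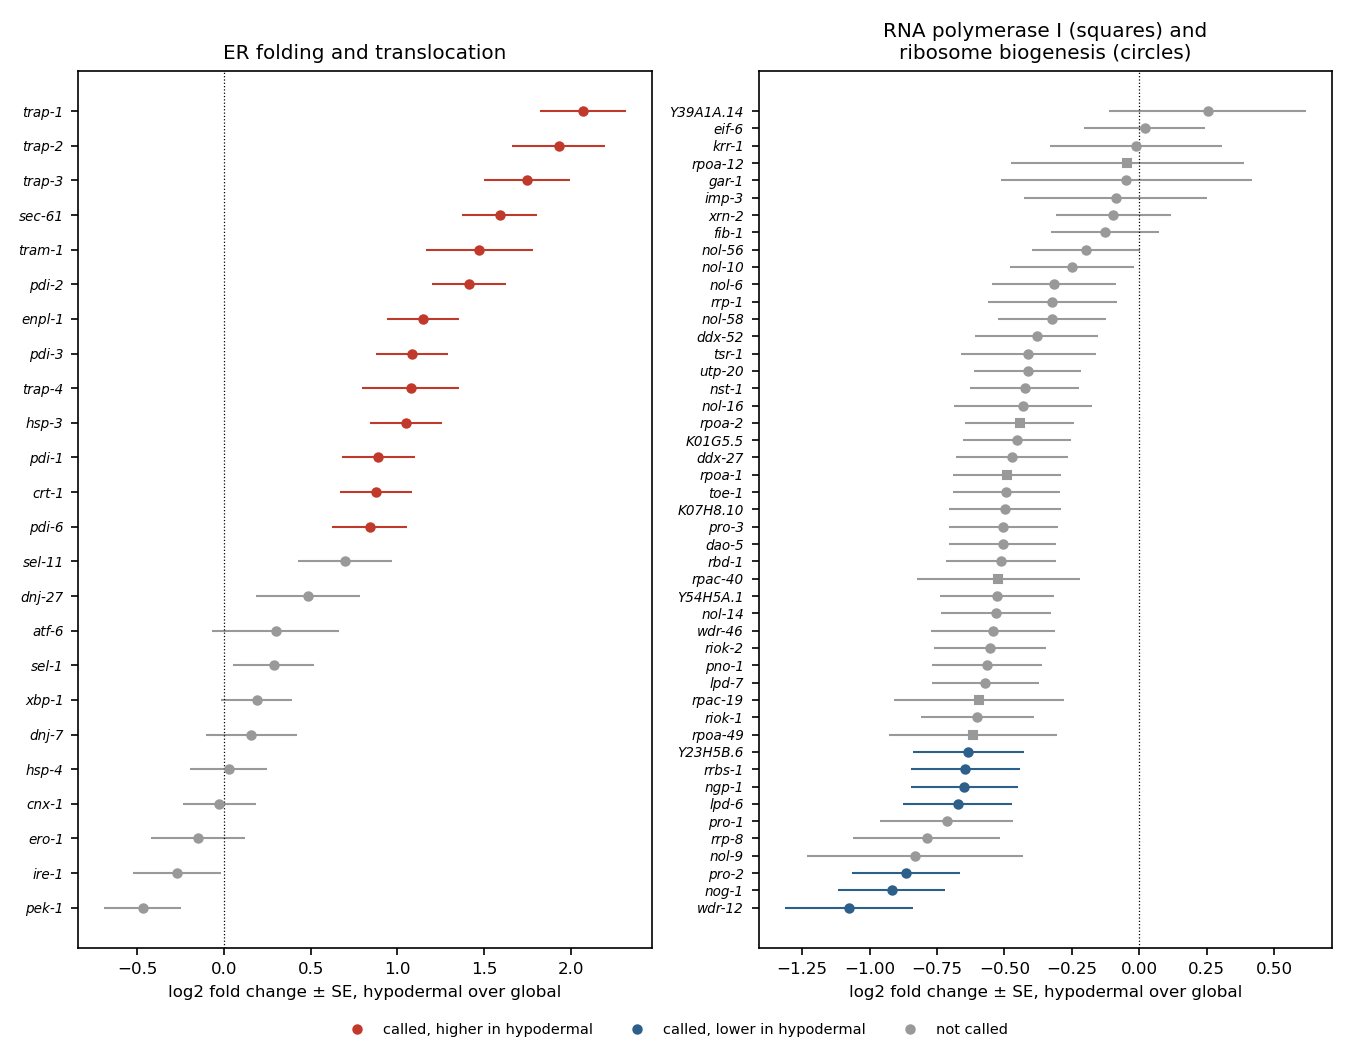
Fitted log2 fold change, hypodermal over global depletion, with its SE, for the tested genes of ER translocation, folding and stress signalling (left panel) and of RNA polymerase I and ribosome biogenesis (right panel). Red marks genes higher in hypodermal depletion, blue genes lower and grey genes not called. On the left 13 of 24 genes are red, with trap-1 at 2.07, and on the right all 6 squares, the polymerase subunits, are grey.

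For the ribosome the 2 depletions were set side by side because both strains were built to lose an RNA polymerase I subunit. None of the 6 tested genes for RNA polymerase I subunits was called, and all 6 log2 fold changes were below 0, with a median of -0.51. The largest-subunit gene rpoa-1 had 532, 418 and 352 CPM in the hypodermal libraries, against 666 and 559 CPM in the global libraries (log2 fold change -0.49, adjusted p = 0.173), so the hypodermal libraries lay below the global ones without passing the test. Without hypodermal replicate 1 this gene was called lower (adjusted p = 0.0258). The values of rpoa-49 were -0.62 (adjusted p = 0.343), of rpac-40 -0.52 (adjusted p = 0.454) and of rpac-19 -0.59 (adjusted p = 0.379) as log2 fold changes. That of rpoa-12 was -0.04 (adjusted p = 0.98), and its sign turned in 4 alternative fits.

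Ribosome biogenesis factors were lower in hypodermal depletion where they were called: 7 of 41 were lower and none was higher (17.1%, against 1.66% of all genes and 4.84% of genes above 100 CPM called lower), and 39 of 41 log2 fold changes were below 0, with a median of -0.50. The nucleolar GTPase gene nog-1 had 1123, 1156 and 1051 CPM in the hypodermal libraries, against 2125 and 2074 CPM in the global libraries (log2 fold change -0.92 ± 0.20, adjusted p = 0.000319), and the 24 h controls stood below both depleted groups, at 519 and 539 CPM. The gene wdr-12, for a factor of large-subunit maturation, had 65.4, 67.7 and 59.3 CPM in the hypodermal libraries, against 136 and 137 CPM in the global libraries (log2 fold change -1.08 ± 0.24, adjusted p = 0.000422). The gene pro-2, which is needed for ribosome assembly and for normal germline proliferation, had 275, 312 and 266 CPM in the hypodermal libraries, against 490.2 and 549 CPM in the global libraries (log2 fold change -0.87 ± 0.20, adjusted p = 0.000907). In all 3 the groups did not overlap and the global libraries were the high ones. The number of calls changed when 1 library was left out, which also left fewer samples. There were 9 without hypodermal replicate 1, 3 without hypodermal replicate 2 or 3, and 2 without either global library. Of the 3 genes, nog-1 was lost without global replicate 1 (adjusted p = 0.0596) and pro-2 without global replicate 2 (adjusted p = 0.155), whereas wdr-12 was kept. With total-count scaling alone 13 factors were lower. The exosome nuclease gene dis-3, the only called gene of 11 tested (9.09%) for the RNA exosome, which trims ribosomal RNA precursors, had 134, 157 and 132 CPM in the hypodermal libraries, against 281 and 336 CPM in the global libraries (log2 fold change -1.13 ± 0.21, adjusted p = 7.76e-06), and this call was kept.

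Cytosolic ribosomal protein genes were called higher at a share close to that of other strongly expressed genes. Of 78 tested, 6 were higher and none was lower (7.69%, against 2.77% of all genes and 7.06% of genes above 100 CPM called higher, with a median of 1130 CPM in this list), 76 log2 fold changes were above 0, and the median was 0.23. The gene rps-13 had 319, 436 and 433 CPM in the hypodermal libraries, against 228 and 202 CPM in the global libraries (log2 fold change 0.88 ± 0.21, adjusted p = 0.00174). The genes rpl-1 and rpl-7A had log2 fold changes of 0.76 (adjusted p = 0.0091) and 0.73 (adjusted p = 0.0132). The 24 h controls of rps-13 stood at 426 and 391 CPM, in the range of the hypodermal libraries, so for this gene the global libraries were the low ones. These calls did not survive the loss of a global library. None remained without global replicate 1 or without global replicate 2, where rps-13 had adjusted p = 0.0827 and 0.234, while 2 remained without hypodermal replicate 2, 1 without hypodermal replicate 3, and 10 were called without hypodermal replicate 1. With total-count scaling alone 3 were higher and 1 was lower, and the median was 0.16. None of 40 genes for translation factors and none of 31 aminoacyl-tRNA synthetase genes was called.

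Among cysteine and aspartyl protease genes, which code for cathepsins of the gut lumen and of lysosomes, 8 of 21 were higher and 1 was lower (42.9%), with a median log2 fold change of 0.40. The cathepsin B-like gene cpr-4 (chromosome V, 6614674 to 6615845) had 756, 829 and 1036 CPM in the hypodermal libraries, against 86.9 and 89.5 CPM in the global libraries (log2 fold change 3.30 ± 0.24, adjusted p = 1.62e-36). Its relative cpr-1 had 788, 874 and 1122 CPM in the hypodermal libraries, against 95.3 and 117 CPM in the global libraries (log2 fold change 3.13 ± 0.24, adjusted p = 7.36e-34). A further relative, cpr-6, had 352, 367 and 435 CPM in the hypodermal libraries, against 83.9 and 50.03 CPM in the global libraries (log2 fold change 2.51 ± 0.24, adjusted p = 4.85e-22). For all 3 the 24 h controls lay above both global libraries too, at 648 and 607 CPM for cpr-4, 729 and 544 CPM for cpr-1 and 344.9 and 320.4 CPM for cpr-6. Another 3 calls, cpr-5 (2.28), the aspartyl protease gene asp-13 (3.10) and the cathepsin L-like gene cpl-1 (2.18, all log2 fold changes), brought the number kept in all 5 fits to 6. These genes have close relatives, and how reads shared between relatives were counted is not given, so single members are uncertain. The lower member was cpr-3, with 15.5, 28.2 and 6.45 CPM in the hypodermal libraries, against 28.2 and 51.8 CPM in the global libraries (log2 fold change -1.17, adjusted p = 0.0446), a call lost without hypodermal replicate 1 or 3 or global replicate 2 (adjusted p = 0.153, 0.373 and 0.747).

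Lysozyme and saposin-like genes, whose products break bacterial walls and membranes, were higher in 10 of 24 and lower in 1 (45.8%). Their median log2 fold change was 0.85, or 0.63 with groups that were unlisted entered at their bound. Besides ilys-5, the saposin-like gene spp-1 had 102, 133 and 172 CPM in the hypodermal libraries, against 45.7 and 47.4 CPM in the global libraries (log2 fold change 1.52 ± 0.26, adjusted p = 8.56e-07), so the highest global library lay below every hypodermal library. The lysozyme gene lys-4 had 34.4, 54.3 and 49.02 CPM in the hypodermal libraries, against 4.57 and 13.2 CPM in the global libraries (log2 fold change 2.38 ± 0.42, adjusted p = 2.66e-06). The exception was the lysozyme gene lys-2, with 106, 147 and 151 CPM in the hypodermal libraries, against 421 and 453 CPM in the global libraries (log2 fold change -1.71 ± 0.21, adjusted p = 1.31e-13), and 114 and 90.4 CPM in the 24 h controls. There the hypodermal libraries were near the controls and the global libraries were the high ones. The number of higher genes was 5 without hypodermal replicate 3 or global replicate 1 and 11 without hypodermal replicate 1, and ilys-5, spp-1, lys-4 and spp-2 were kept throughout, as was lys-2.

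Of 17 intestinal marker genes tested, 4 were higher and 1 was lower (29.4%), with a median of 0.32. The peptide transporter gene pept-1 had 372, 348 and 565 CPM in the hypodermal libraries, against 187 and 134 CPM in the global libraries (log2 fold change 1.40 ± 0.22, adjusted p = 2.91e-08). The gut esterase gene ges-1 had 51.8, 54.3 and 74.8 CPM in the hypodermal libraries, against 18.3 and 19.3 CPM in the global libraries (log2 fold change 1.65 ± 0.34, adjusted p = 0.0001). Both were kept, and so was cpr-6. The acid phosphatase gene pho-1 had 66.9, 91.2 and 129 CPM in the hypodermal libraries, against 31.3 and 50.9 CPM in the global libraries (log2 fold change 1.19 ± 0.27, adjusted p = 0.000869) and was lost without hypodermal replicate 3 or global replicate 1 (adjusted p = 0.113 and 0.278). The lower marker was the sphingosine phosphate lyase gene spl-1, with 66.4, 79.1 and 106 CPM in the hypodermal libraries, against 117 and 190.4 CPM in the global libraries (log2 fold change -0.91 ± 0.23, adjusted p = 0.00409), a call lost without hypodermal replicate 2 or global replicate 2 (adjusted p = 0.0651 and 0.666). Of the 12 markers not called, 3 had log2 fold changes below 0, namely ifo-1 (log2 fold change -0.53, adjusted p = 0.135), ifc-2 (log2 fold change -0.38, adjusted p = 0.376) and eps-8 (log2 fold change -0.03, adjusted p = 0.971). Other defining genes of the tissue did not pass the test. The brush border actin gene act-5 had 2311, 2479 and 3502 CPM in the hypodermal libraries, against 2332 and 2376 CPM in the global libraries (log2 fold change 0.23, adjusted p = 0.697). The intermediate filament gene ifb-2 had 884, 857 and 1111 CPM in the hypodermal libraries, against 969 and 853 CPM in the global libraries (log2 fold change 0.06, adjusted p = 0.945). The identity factor gene elt-2 had 9.21, 20.1 and 20.6 CPM in the hypodermal libraries, against 14.5 and 17.6 CPM in the global libraries (log2 fold change 0.00, adjusted p = 0.999). The groups overlapped for elt-2, ifb-2 and act-5. Summed over the 17 genes, intestinal markers stood at 5802, 5859 and 7697 CPM in the hypodermal libraries and at 5543 and 5303 CPM in the global libraries, and the part of this in the results for intestinal genes was not tested. The yolk gene vit-2 was unlisted in all 9 libraries.

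Genes of fatty acid oxidation and lipolysis gave more calls than any other list, with 18 of 71 higher and 3 lower (29.6%) and a median log2 fold change of 0.57. The acyl-CoA dehydrogenase gene acdh-1 (chromosome I, 6497436 to 6499560), which acts in breakdown of branched-chain and propionyl-CoA substrates, had 295, 333 and 414 CPM in the hypodermal libraries, against 40.4 and 52.7 CPM in the global libraries (log2 fold change 2.89 ± 0.25, adjusted p = 1.26e-26). Its 24 h controls stood above both depleted groups, at 669 and 666 CPM. The lysosomal lipase gene lipl-5 had 141, 154 and 164 CPM in the hypodermal libraries, against 52.6 and 31.6 CPM in the global libraries (log2 fold change 1.84 ± 0.26, adjusted p = 4.37e-10), and the 24 h controls lay between the groups at 74.98 and 72.7 CPM. The peroxisomal acyl-CoA oxidase gene acox-1.4 had 45.5, 58.3 and 49.02 CPM in the hypodermal libraries, against 3.81 and 7.90 CPM in the global libraries (log2 fold change 3.13 ± 0.44, adjusted p = 5.93e-10). Other enzymes of peroxisomal oxidation were called too. The oxidase gene acox-1.2 had a log2 fold change of 2.01 (adjusted p = 6.31e-09), the hydratase gene maoc-1 2.24 (adjusted p = 3.24e-06) and the dehydrogenase gene dhs-28 1.54 (adjusted p = 1.09e-08), whereas the thiolase gene daf-22 did not pass (log2 fold change 0.78, adjusted p = 0.0745). The carnitine palmitoyltransferase gene cpt-4 had 93.0, 101 and 111 CPM in the hypodermal libraries, against 36.6 and 39.5 CPM in the global libraries (log2 fold change 1.41, adjusted p = 2.61e-05). Between 12 and 19 members were higher when 1 library was left out, and 12 were kept in all 5 fits. The 3 lower members, acs-16, fil-1 and ech-9, came to 1 without hypodermal replicate 1 or global replicate 1, 3 without hypodermal replicate 2 and none without hypodermal replicate 3 or global replicate 2.

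Genes that build and modify fatty acids were higher in 6 of 32, with none lower (18.8%) and a median of 0.32. The elongase genes elo-5 and elo-6 make the branched-chain fatty acids that worms need to grow. The gene elo-6 had 231, 209 and 304 CPM in the hypodermal libraries, against 41.9 and 57.9 CPM in the global libraries (log2 fold change 2.31 ± 0.25, adjusted p = 2.71e-17). The gene elo-5 had 122.1, 106 and 222 CPM in the hypodermal libraries, against 32.8 and 54.4 CPM in the global libraries (log2 fold change 1.76 ± 0.26, adjusted p = 6.31e-09). The 24 h controls lay between the groups, at 117 and 151 CPM for elo-6 and 78.0 and 88.4 CPM for elo-5. The ketoacyl-CoA reductase gene let-767 had 520.4, 590.0 and 725 CPM in the hypodermal libraries, against 288 and 243 CPM in the global libraries (log2 fold change 1.198 ± 0.21, adjusted p = 2.12e-06). These 3 calls were kept. The other 3 were the elongase gene elo-2 (1.08), hpo-8 (1.26) and art-1 (0.94, all log2 fold changes), and 4 members remained without hypodermal replicate 3 or either global library. Among short-chain dehydrogenase genes 5 of 29 were higher and none lower (17.2%, median 0.52). Of these, dhs-2 had 21.3, 31.5 and 29.7 CPM in the hypodermal libraries, against 5.34 and 5.27 CPM in the global libraries (log2 fold change 2.34 ± 0.53, adjusted p = 0.000589), and was unlisted in both 24 h controls. The lipid droplet protein gene dhs-3 had 38.8, 54.98 and 111 CPM in the hypodermal libraries, against 22.1 and 26.3 CPM in the global libraries (log2 fold change 1.42, adjusted p = 0.00063), a call lost without hypodermal replicate 3 (adjusted p = 0.181) or global replicate 1 (adjusted p = 0.0809). The number of higher dehydrogenases was 3 without hypodermal replicate 3 and 2 without global replicate 1. Of 18 lipid-binding and vitellogenin genes 3 were higher (16.7%), with 1 left without hypodermal replicate 2 or 3, 2 without global replicate 2 and none without global replicate 1. None of 20 glycolysis, 24 tricarboxylic acid and glyoxylate cycle and 77 respiratory chain genes was called.

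ABC transporters, which pump lipids, toxins and metabolites across membranes, were split, with 8 of 42 higher and 3 lower (26.2%). Their median of 0.17 was 0.02 with unlisted groups at their bound. The peroxisomal transporter gene pmp-5 had 121, 167 and 224 CPM in the hypodermal libraries, against 19.8 and 12.3 CPM in the global libraries (log2 fold change 3.37 ± 0.30, adjusted p = 6.56e-25). The gene mrp-4 had 179.8, 202 and 263 CPM in the hypodermal libraries, against 69.4 and 47.4 CPM in the global libraries (log2 fold change 1.86 ± 0.24, adjusted p = 1.12e-11). In both genes the 24 h controls were above the global libraries, at 156 and 267 CPM for pmp-5 and 156 and 151 CPM for mrp-4. The products of haf-4 and haf-9 act in lysosome-related organelles of the intestine. The values of haf-4 were 531, 514 and 796 CPM in the hypodermal libraries, against 274 and 236 CPM in the global libraries (log2 fold change 1.26 ± 0.21, adjusted p = 5.75e-07). Those of haf-9 were 379, 398 and 488 CPM in the hypodermal libraries, against 183 and 175 CPM in the global libraries (log2 fold change 1.23 ± 0.21, adjusted p = 1.54e-06). The P-glycoprotein genes pgp-6 (1.84) and pgp-2 (0.76, both log2 fold changes) were higher, while the 3 lower genes were P-glycoproteins too. Of these pgp-8 had 159, 176 and 168 CPM in the hypodermal libraries, against 351 and 384 CPM in the global libraries (log2 fold change -1.14 ± 0.20, adjusted p = 4.21e-06), and it was unlisted in all 4 controls. Without hypodermal replicate 3 or global replicate 2, 5 transporters were higher. With either global library left out pgp-8 was the only lower one.

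**Figure D4:**
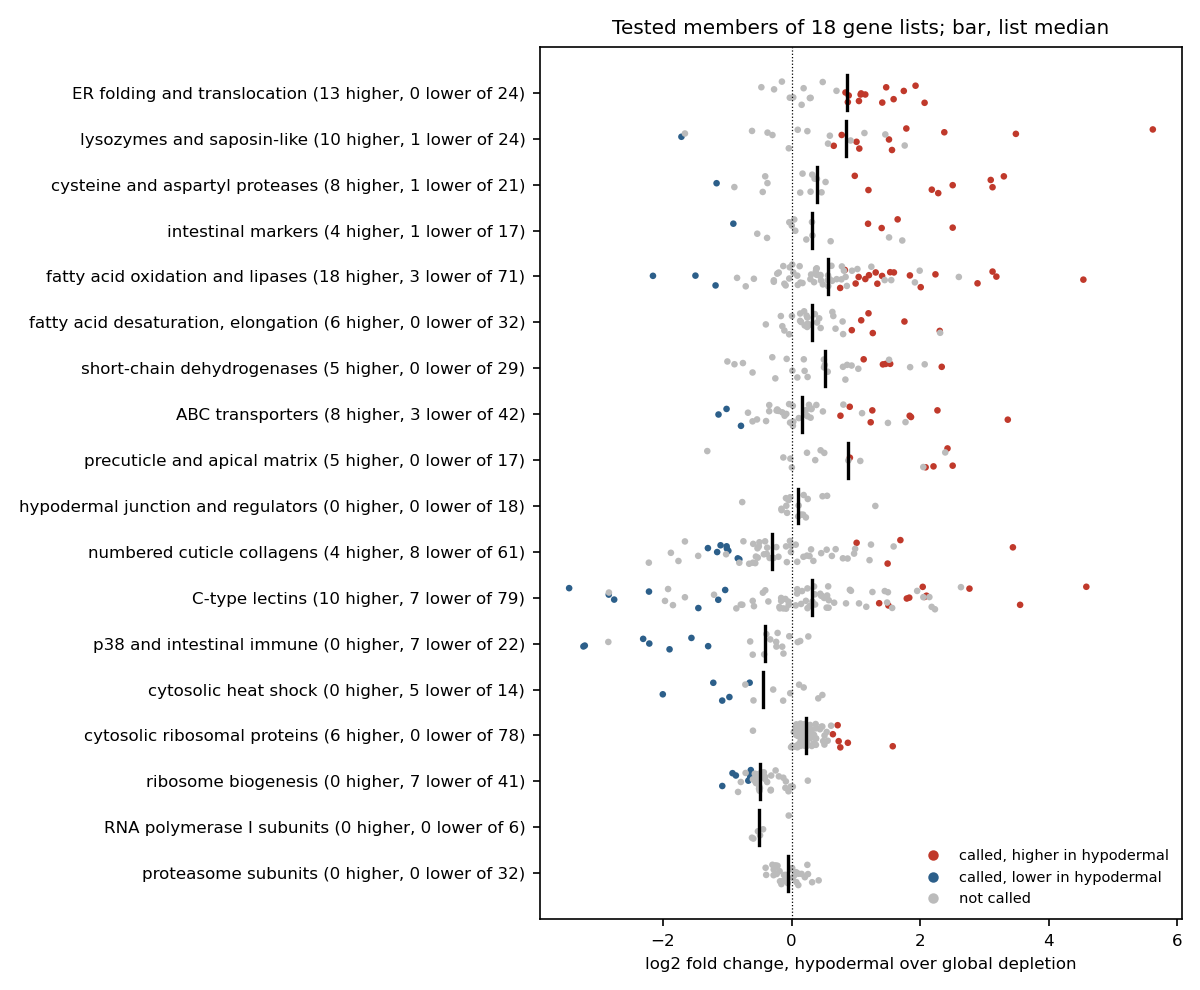
Fitted log2 fold change, hypodermal over global depletion (horizontal axis), of each tested gene in 18 gene lists, with red points for genes higher in hypodermal depletion, blue points for genes lower and grey points for genes not called. Black bars are list medians. The ER, lysozyme and fatty acid oxidation lists have medians of 0.86, 0.85 and 0.57, and ribosome biogenesis has -0.50.

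The cuticle and its precursors gave calls in both directions. Apical matrix genes, whose products line the epidermis before the collagen cuticle is laid down, were higher in 5 of 17 and lower in none (29.4%). Their median log2 fold change was 0.88, or 0.51 with unlisted groups at their bound. The fibrillin-like gene fbn-1 had 85.3, 85.8 and 58.05 CPM in the hypodermal libraries, against 11.4 and 17.6 CPM in the global libraries (log2 fold change 2.43 ± 0.34, adjusted p = 2.35e-10). The zona pellucida domain gene noah-1 had 64.4, 70.4 and 63.2 CPM in the hypodermal libraries, against 16.01 and 12.3 CPM in the global libraries (log2 fold change 2.21 ± 0.35, adjusted p = 5.25e-08). Its relative noah-2 had 57.2, 43.6 and 63.2 CPM in the hypodermal libraries, against 11.4 and 14.04 CPM in the global libraries (log2 fold change 2.09 ± 0.37, adjusted p = 3.39e-06). In all 3 genes the highest global library lay below the lowest hypodermal one. The leucine-rich repeat gene sym-1 had 48.0, 40.2 and 43.9 CPM in the hypodermal libraries, against 10.7 and 4.39 CPM in the global libraries (log2 fold change 2.51 ± 0.43, adjusted p = 1.18e-06). These 4 calls were kept, and in each the global libraries were the low ones. The 24 h controls were above every depleted library, at 105 and 200.5 CPM for fbn-1, 165 and 216 CPM for noah-1, 138 and 287 CPM for noah-2 and 144 and 220.1 CPM for sym-1.

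Of 61 numbered cuticle collagen genes tested, 8 were lower and 4 were higher in hypodermal depletion (19.7%), with a median of -0.30. The gene col-160 had 207, 290.3 and 193 CPM in the hypodermal libraries, against 505 and 527 CPM in the global libraries (log2 fold change -1.16 ± 0.20, adjusted p = 1.49e-06), and 792 and 938 CPM in the 24 h controls, above both depleted groups. The gene col-80 had 65.9, 48.9 and 46.4 CPM in the hypodermal libraries, against 156 and 113 CPM in the global libraries (log2 fold change -1.30 ± 0.24, adjusted p = 9.41e-06). The gene col-107 had 118, 150.2 and 108 CPM in the hypodermal libraries, against 312 and 231 CPM in the global libraries (log2 fold change -1.104 ± 0.21, adjusted p = 1.75e-05). In all 3 the hypodermal libraries were the lowest of the 24 h libraries. The calls of col-80 and col-107 were lost without global replicate 1 (adjusted p = 0.0634 and 0.106), and col-160 alone was kept. The lower count was 8 without hypodermal replicate 1 or 2, 6 without hypodermal replicate 3, 3 without global replicate 1 and 4 without global replicate 2. The 4 higher genes, col-76, col-97, col-149 and col-48, came to 3 without hypodermal replicate 1, 1 without hypodermal replicate 2 or 3 and none without either global library. Collagen genes resemble each other closely, so reads may have been shared between members, and col-160, col-80 and col-107 overlap other listed genes.

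Among 11 collagens named by shape, not only that of the body, 1 was higher and 1 lower (18.2%). The higher gene, sqt-3, had 86.7, 56.3 and 73.5 CPM in the hypodermal libraries, against 25.2 and 34.2 CPM in the global libraries (log2 fold change 1.29 ± 0.30, adjusted p = 0.000907). In the other direction ram-2 had 160.4, 179 and 137 CPM in the hypodermal libraries, against 274 and 259.8 CPM in the global libraries (log2 fold change -0.74 ± 0.21, adjusted p = 0.0134). Both were lost without global replicate 1 (adjusted p = 0.165 for sqt-3 and 0.267 for ram-2), and ram-2 also without hypodermal replicate 3 (adjusted p = 0.0737) or global replicate 2 (adjusted p = 0.179). Of 29 molting enzymes and regulators 2 were higher and none lower (6.9%, against 4.42% of all genes). The peptidase-like gene acn-1 had 69.3, 69.1 and 98.0 CPM in the hypodermal libraries, against 42.7 and 20.2 CPM in the global libraries (log2 fold change 1.28, adjusted p = 0.000705), a call lost without hypodermal replicate 3 (adjusted p = 0.086) or global replicate 2 (adjusted p = 0.339). The protease inhibitor gene mlt-11 had 43.6, 25.5 and 24.5 CPM in the hypodermal libraries, against 12.2 and 6.14 CPM in the global libraries (log2 fold change 1.77, adjusted p = 0.00371), lost without hypodermal replicate 1 (adjusted p = 0.126) or global replicate 2 (adjusted p = 0.246). Its 24 h controls were far above every depleted library, at 519 and 607 CPM. Of 50 hedgehog-related and patched-related genes 1 was higher and 1 lower (4%, against 4.42% of all genes). The gene grd-10 was lower, with 25.7, 22.1 and 28.4 CPM in the hypodermal libraries, against 67.9 and 66.7 CPM in the global libraries (log2 fold change -1.42 ± 0.31, adjusted p = 0.00031), and this call was kept. The patched-related gene ptr-4 was higher, with 23.7, 21.5 and 19.3 CPM in the hypodermal libraries, against 3.81 and 6.14 CPM in the global libraries (log2 fold change 2.12, adjusted p = 0.00641), and was lost without global replicate 1 (adjusted p = 0.215) or global replicate 2 (adjusted p = 0.0546). None of 18 junction and regulator genes of the hypodermis was called. The summed level of those 18 was 6841, 5238 and 3883 CPM in the hypodermal libraries and 5434 and 4750 CPM in the global libraries, so the groups overlapped.

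In a list of p38 pathway targets and other intestinal immune genes, 7 of 22 were lower in hypodermal depletion and none was higher (31.8%). The median log2 fold change was -0.41. Besides C17H12.8 and T24B8.5, irg-4 (chromosome IV, 12435827 to 12438274), an infection response gene, had 186, 237 and 254 CPM in the hypodermal libraries, against 820.3 and 852 CPM in the global libraries (log2 fold change -1.90 ± 0.20, adjusted p = 1.18e-17). The gene dod-19 had 84.8, 68.4 and 124 CPM in the hypodermal libraries, against 245 and 286 CPM in the global libraries (log2 fold change -1.56 ± 0.22, adjusted p = 3.32e-10). The gene dod-24 had 4.84, 15.4 and 9.03 CPM in the hypodermal libraries, against 42.7 and 52.7 CPM in the global libraries (log2 fold change -2.31 ± 0.40, adjusted p = 1.62e-06). In all 3 the global libraries were the high ones. The hypodermal libraries of irg-4 lay close to the 24 h controls, at 207 and 210.3 CPM. For dod-24 the 24 h controls, at 17.995 and 13.8 CPM, lay below both global libraries, and hypodermal replicates 1 and 3 lay below both controls. Between 5 and 7 members were lower when 1 library was left out, and these 5 genes were kept throughout. The others were irg-6 (log2 fold change -2.21, adjusted p = 0.000601) and hpo-6 (log2 fold change -1.30, adjusted p = 0.0306). The call of irg-6 was lost without global replicate 2 (adjusted p = 0.051), and that of hpo-6 was kept only without hypodermal replicate 2, with adjusted p from 0.0828 to 0.528 without another library.

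C-type lectin genes, many of which respond to microbes in the intestine, were called in both directions, with 10 of 79 higher and 7 lower (21.5%). The gene clec-67 (chromosome IV, 3922165 to 3925045) had 148, 133 and 174 CPM in the hypodermal libraries, against 1092 and 947 CPM in the global libraries (log2 fold change -2.76 ± 0.21, adjusted p = 1.04e-34), and 381 and 342 CPM in the 24 h controls. The gene clec-265 had 20.3, 26.8 and 67.1 CPM in the hypodermal libraries, against 217 and 277 CPM in the global libraries (log2 fold change -2.84 ± 0.24, adjusted p = 3.06e-26). The gene clec-52 had 45.5, 54.98 and 68.4 CPM in the hypodermal libraries, against 242 and 270.3 CPM in the global libraries (log2 fold change -2.22 ± 0.23, adjusted p = 8.03e-19). In these 3 the global libraries stood above every hypodermal and every 24 h control library. The calls of clec-67, clec-265, clec-52, clec-65 and clec-41 were kept. Of the higher genes clec-170 and clec-48 were kept, and clec-48 had 42.6, 54.3 and 68.4 CPM in the hypodermal libraries, against 13.7 and 12.3 CPM in the global libraries (log2 fold change 2.04 ± 0.37, adjusted p = 5.75e-06). The number higher was 8 without hypodermal replicate 1, 6 without hypodermal replicate 2, 2 without hypodermal replicate 3, 4 without global replicate 1 and 3 without global replicate 2. The median of 0.33 was 0.16 with unlisted groups at their bound.

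Cytosolic heat shock genes, which code for chaperones of unfolded proteins, were lower in 5 of 14 and higher in none (35.7%), with a median log2 fold change of -0.44. The small heat shock gene hsp-16.2 had 53.8, 48.3 and 101 CPM in the hypodermal libraries, against 149 and 152 CPM in the global libraries (log2 fold change -1.22 ± 0.24, adjusted p = 2.99e-05). The gene hsp-70 had 31.98, 26.8 and 5.16 CPM in the hypodermal libraries, against 98.3 and 91.3 CPM in the global libraries (log2 fold change -2.003 ± 0.29, adjusted p = 1.38e-09), with hypodermal replicate 3 the lowest of the 5 libraries. Both calls were kept when a library was left out, although with DESeq2 hsp-70 had adjusted p = 0.117. The third, hsp-17, had 50.9, 61.7 and 76.1 CPM in the hypodermal libraries, against 117 and 143 CPM in the global libraries (log2 fold change -1.08 ± 0.24, adjusted p = 0.00056) and was lost without global replicate 2 (adjusted p = 0.128). In hsp-17 both 24 h controls, at 132 and 82.6 CPM, lay above every hypodermal library. Without global replicate 1 there were 3 lower members, without global replicate 2 there were 2 and without hypodermal replicate 1 there were 6. None of 14 cytosolic chaperonin and none of 32 proteasome subunit genes was called.

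Detoxification genes were mixed. Of 46 glutathione transferase genes 5 were higher and 3 lower (17.4%). The gene gst-38 had 6.30, 9.39 and 11.6 CPM in the hypodermal libraries, against 58.7 and 79.0 CPM in the global libraries (log2 fold change -2.99 ± 0.37, adjusted p = 7.14e-13). The gene gst-24 had 411, 521 and 352 CPM in the hypodermal libraries, against 1039.9 and 986 CPM in the global libraries (log2 fold change -1.24 ± 0.20, adjusted p = 9.93e-08). For gst-24 the 24 h controls, at 59.98 and 53.1 CPM, lay far below both depleted groups. In the other direction gst-10 had 92.1, 111 and 121 CPM in the hypodermal libraries, against 38.1 and 21.9 CPM in the global libraries (log2 fold change 1.82 ± 0.28, adjusted p = 2.77e-08). These 3 were kept, while the number higher was 3 without hypodermal replicate 3 or global replicate 1 and 2 without global replicate 2. Of 57 UDP-glucuronosyltransferase genes, whose products conjugate sugars to drugs and metabolites, 2 were higher and 1 was lower (5.26%, against 4.42% of all genes). The higher gene ugt-22 had 224, 328 and 353 CPM in the hypodermal libraries, against 90.7 and 86.0 CPM in the global libraries (log2 fold change 1.76 ± 0.23, adjusted p = 1.02e-11). The lower gene ugt-44 had 32.9, 43.6 and 37.4 CPM in the hypodermal libraries, against 133 and 94.8 CPM in the global libraries (log2 fold change -1.59 ± 0.26, adjusted p = 1.61e-07). Both calls were kept. The other call, ugt-17, was lost without any of the 5 libraries. Of 62 cytochrome P450 genes 3 were higher and 1 lower (6.45%), none of them kept. The peroxisomal catalase gene ctl-2, the only call among 16 antioxidant genes (6.25%), had 95.4, 101 and 152 CPM in the hypodermal libraries, against 38.1 and 38.6 CPM in the global libraries (log2 fold change 1.57 ± 0.27, adjusted p = 1.19e-06) and was kept. The ferritin gene ftn-1, for iron storage, had 23.7, 24.1 and 24.5 CPM in the hypodermal libraries, against 4.57 and 2.63 CPM in the global libraries (log2 fold change 2.69 ± 0.58, adjusted p = 0.000269), also kept. The other ferritin gene, ftn-2, was higher (log2 fold change 0.64, adjusted p = 0.0452) and the cadmium response gene cdr-1 was lower (log2 fold change -1.40, adjusted p = 0.0186), and both were lost in 4 of the 5 fits with a library left out.

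Other tissues contributed few calls. Of 24 body wall muscle genes 1 was higher and 1 lower (8.33%, against 11.9% of genes above 100 CPM, with a list median of 693.5 CPM). The gene unc-60, for the actin-severing protein cofilin, was higher, with 74.6, 91.2 and 115 CPM in the hypodermal libraries, against 25.9 and 36.9 CPM in the global libraries (log2 fold change 1.56 ± 0.29, adjusted p = 6.56e-06), and this call was kept. The troponin I gene tni-3 was lower, with 166, 146 and 98.0 CPM in the hypodermal libraries, against 241 and 236 CPM in the global libraries (log2 fold change -0.78, adjusted p = 0.00891), and was lost without any library but hypodermal replicate 1 (adjusted p up to 0.197, without global replicate 1). Of 26 neuronal genes 1 was lower and none higher (3.85%, against 4.42% of all genes). This gene, unc-18, which acts in synaptic vesicle release, had 143, 123 and 111 CPM in the hypodermal libraries, against 263 and 256 CPM in the global libraries (log2 fold change -1.03 ± 0.21, adjusted p = 8.4e-05), and was kept. None of 18 pharynx, 17 germline and 102 neuropeptide genes was called. The summed levels of the muscle list ran from 41280 to 58350 CPM in the hypodermal libraries and were 45640 and 40780 CPM in the global libraries, and those of the pharynx list from 6002 to 11590 CPM in the hypodermal libraries and were 10280 and 9024 CPM in the global libraries. Both overlapped. The neuron list summed to 3893, 3732 and 3159 CPM in the hypodermal libraries, below 4250 and 4378 CPM in the global libraries, and the part of this in the result for unc-18 was not tested. None of 55 DNA replication and cell cycle genes was called. The growth signalling kinase gene sgk-1, the only call of 31 genes of that list (3.23%), had 54.3, 67.05 and 72.2 CPM in the hypodermal libraries, against 17.5 and 30.7 CPM in the global libraries (log2 fold change 1.41 ± 0.32, adjusted p = 0.00063), and was lost without global replicate 1.

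Lysosomes digest material taken up by the cell in a lumen that the V-ATPase proton pump acidifies. Of 33 autophagy and lysosome genes 2 were higher in hypodermal depletion and none was lower (6.06%, a share near the 6.44% of genes between 30 and 100 CPM, with a list median of 42.9 CPM). The lysosomal DNase gene nuc-1 had 43.6, 57.7 and 87.7 CPM in the hypodermal libraries, against 19.1 and 21.1 CPM in the global libraries (log2 fold change 1.602 ± 0.33, adjusted p = 0.000138), and this call was kept. The lysosomal membrane protein gene lmp-1 had 203, 162 and 189.6 CPM in the hypodermal libraries, against 101 and 84.3 CPM in the global libraries (log2 fold change 0.99 ± 0.23, adjusted p = 0.000928) and was lost without global replicate 2 (adjusted p = 0.187). In both the groups did not overlap. Among 21 V-ATPase genes 2 were higher and 1 was lower (14.3%, against 11.9% of genes above 100 CPM, with a list median of 231 CPM). The subunit gene vha-6, which is used in the intestine, had 618, 632 and 850.0 CPM in the hypodermal libraries, against 458 and 325 CPM in the global libraries (log2 fold change 0.83, adjusted p = 0.00281) and was lost without hypodermal replicate 3 or global replicate 2 (adjusted p = 0.0737 and 0.497). A gene for the same kind of subunit, vha-7, had 27.6, 27.5 and 32.2 CPM in the hypodermal libraries, against 56.4 and 75.5 CPM in the global libraries (log2 fold change -1.19, adjusted p = 0.00382) and was lost without global replicate 2 (adjusted p = 0.307). The last, vha-13, had a log2 fold change of 0.67 (adjusted p = 0.0308) and was kept only without hypodermal replicate 1.

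Transthyretin-like genes, a nematode family of small secreted proteins, were higher in 5 of 42 and lower in none (11.9%), with a median of 0.39, or 0.27 with unlisted groups at their bound. The gene ttr-44 had 46.997, 59.0 and 72.2 CPM in the hypodermal libraries, against 11.4 and 13.2 CPM in the global libraries (log2 fold change 2.24 ± 0.37, adjusted p = 2.87e-07), and this call was kept. The gene ttr-17 had 36.8, 63.0 and 80.0 CPM in the hypodermal libraries, against 16.8 and 21.9 CPM in the global libraries (log2 fold change 1.59 ± 0.34, adjusted p = 0.000251) and was lost without global replicate 1 (adjusted p = 0.0672) or hypodermal replicate 3 (adjusted p = 0.0632). Nuclear hormone receptor genes, a large family of ligand-controlled transcription factors, had 2 higher and 3 lower members (2.75% of those tested). This is set against 4.42% of all genes and 0.864% of genes below 10 CPM, to which 95 of the receptor genes belong, and no difference in share was tested. Of the 5 called genes nhr-17 had 56.7, 38.9 and 64.5 CPM in the hypodermal libraries, against 113 and 109.7 CPM in the global libraries (log2 fold change -1.08, adjusted p = 0.000952) and was lost without global replicate 1 or hypodermal replicate 2 (adjusted p = 0.0639 and 0.0665). The receptor gene nhr-114, which acts in the intestine, had 134, 84.5 and 166 CPM in the hypodermal libraries, against 60.99 and 63.2 CPM in the global libraries (log2 fold change 1.03, adjusted p = 0.00203) and was lost without hypodermal replicate 3 or either global library (adjusted p = 0.12, 0.13 and 0.094). Of 44 nuclear pore and transport genes 2 were lower and none higher (4.55%, against 4.42% of all genes and 11.9% of genes above 100 CPM). These were xpo-2 (log2 fold change -0.82, adjusted p = 0.0112) and ima-2 (log2 fold change -0.79, adjusted p = 0.0397). The call of xpo-2 was kept only without hypodermal replicate 1 and that of ima-2 in none of the 5 fits. None of 51 abu and pqn genes, 16 epidermal antimicrobial peptide genes and 12 trehalose and glycogen genes was called.

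**Figure D5:**
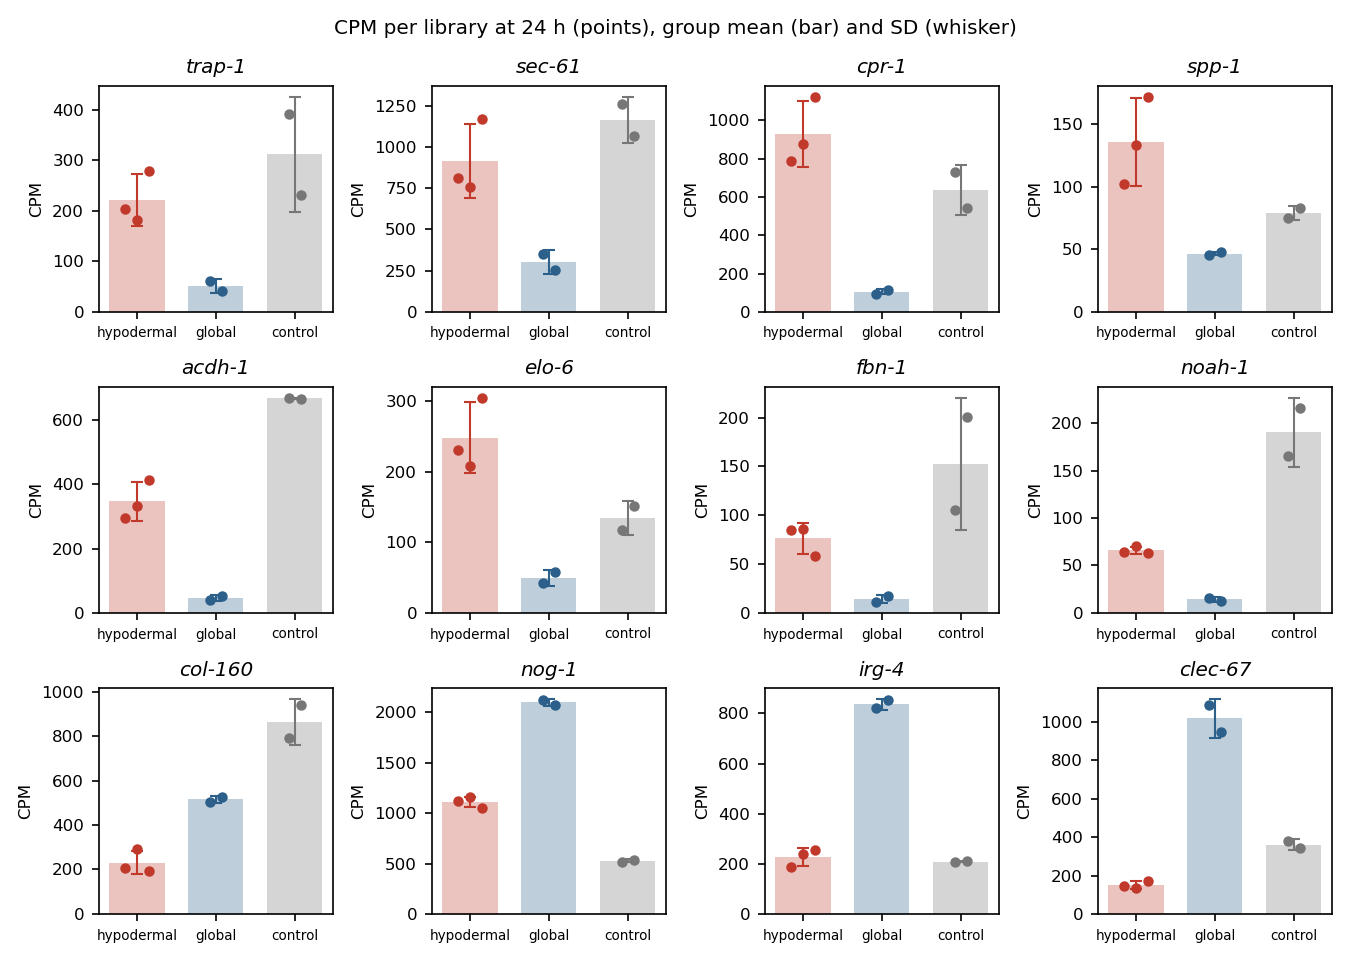
CPM per library at 24 h for 12 genes, with points for libraries, bars for group means and whiskers for the SD, and with hypodermal depletion at the left (n = 3), global depletion in the middle (n = 2) and controls at the right (n = 2). The hypodermal points are above the global points for trap-1, sec-61, cpr-1, spp-1, acdh-1, elo-6, fbn-1 and noah-1 and below them for col-160, nog-1, irg-4 and clec-67.

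Some called genes were not resolved in the controls. Of the 507 calls 35 were unlisted in both 24 h controls, 15 of them higher and 20 lower in hypodermal depletion, and 26 were unlisted in all 4 controls. The called genes included 17 higher ones that were unlisted in both global libraries and 14 lower ones that were unlisted in all 3 hypodermal libraries. These were 3.64% of the 467 tested genes unlisted in both global libraries and 15.4% of the 91 unlisted in all 3 hypodermal libraries. The 2 shares are not comparable, because the 91 had to be listed in both global libraries and the 467 in 2 or 3 hypodermal ones. Such genes entered the test only through the group in which they were listed. The 4 leading higher genes below 10 CPM were ZK673.1, W03D8.8, F17B5.1 and the vesicular glutamate transporter gene vglu-3, all unlisted in both global libraries. The gene vglu-3 had 11.6, 16.09 and 7.74 CPM in the hypodermal libraries and was at least 4.80-fold higher (adjusted p = 0.00361). F17B5.1 had 13.6, 7.38 and 16.8 CPM in the hypodermal libraries and was at least 5.11-fold higher (adjusted p = 0.00366). Both were unlisted in the 24 h controls and were lost without either global library (adjusted p = 0.105 and 0.0736 for vglu-3 and 0.106 and 0.0739 for F17B5.1), and vglu-3 also without hypodermal replicate 2 (adjusted p = 0.0699) and F17B5.1 without hypodermal replicate 3 (adjusted p = 0.0569). ZK673.1 had 10.2, 14.8 and 16.8 CPM in the hypodermal libraries and was at least 5.65-fold higher (adjusted p = 0.00132). W03D8.8 had 10.7, 18.1 and 9.03 CPM in the hypodermal libraries and was at least 5.12-fold higher (adjusted p = 0.00211). Unlike the pair above, these were listed in both 24 h controls, at 39.0 and 5.90 CPM for ZK673.1 and 50.98 and 39.3 CPM for W03D8.8. Both were lost without global replicate 1 (adjusted p = 0.065 and 0.0827), and W03D8.8 also without global replicate 2 or hypodermal replicate 2 (adjusted p = 0.0555 and 0.0709).

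The 4 leading lower genes below 10 CPM were B0403.3, F10A3.1, the F-box gene fbxa-158 and M28.8, all unlisted in the 3 hypodermal libraries. B0403.3 had 17.5 and 6.14 CPM in the global libraries and was at least 4.84-fold lower in hypodermal depletion (adjusted p = 0.00277). F10A3.1 had 9.91 and 11.4 CPM in the global libraries and was at least 4.36-fold lower (adjusted p = 0.00708). In both genes these values are a few times the floor of 3 counts. The gene fbxa-158 had 12.96 and 7.90 CPM in the global libraries and was at least 4.27-fold lower (adjusted p = 0.00772). M28.8 had 14.5 and 6.14 CPM in the global libraries and was at least 4.22-fold lower (adjusted p = 0.00803). All 4 were lost after thinning of the libraries to an equal total, and each without some single library. B0403.3 was lost without global replicate 1 (adjusted p = 0.17), F10A3.1 without hypodermal replicate 1 or 2 (adjusted p = 0.0596 and 0.0523), fbxa-158 without these or global replicate 1 (adjusted p up to 0.0931), and M28.8 without any library but global replicate 2 (adjusted p up to 0.17). F-box genes as a whole, which code for adaptors of ubiquitin ligases, had 3 of 83 lower and none higher (3.61%), against 4.42% of all genes and 0.864% of genes below 10 CPM, to which 77 of the 83 belong. Of the 3 calls fbxa-163 was kept.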

How the data were processed

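RNA of whole worms was sequenced, and the 9 libraries were grouped by genotype, IAA and time as labelled. The table that the authors deposited gives a count for each gene and library over its coding sequence, per the file headers. Each gene has 1 transcript, the counts are whole numbers without normalization, and none below 3 is listed. The build WBcel235 and DESeq2 are named in the submitters' processing notes. How reads were aligned and counted, including strand and multi-mapping reads, is not given in the sources used here, so overlapping genes and close relatives are uncertain. Of the 507 called genes, 126 overlap another listed gene. Besides those marked above, they include T16G12.4, nog-1, wdr-12, fbn-1, sym-1, mrp-4, hsp-70, unc-60 and dhs-28. Also among them are spp-1, elo-5, ttr-44, acn-1, hsp-17, dhs-3, nhr-17, nhr-114, vha-13, mthf-1, gcsh-2 and B0403.3. Of 10 libraries named in the table, 1 matched no sample and was not used here. Of 13246 genes listed in at least 1 of 9 libraries, 13153 had their identifier in the gene name reference, 12467 with the same symbol.

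The 3 hypodermal and 2 global libraries were fitted in edgeR 4.0.16 (R 4.3.3, limma 3.58.1) with TMM factors and a robust quasi-likelihood fit with a term per group. Genes listed in at least 2 of the 5 libraries were tested, unlisted counts entered as 1, and p-values were Benjamini-Hochberg adjusted over all genes tested with a threshold of 0.05. The biological coefficient of variation was 0.204. Log2 fold changes are fitted values with their standard error. A fold against a group without a listed count is a bound, computed with 3 counts in each of its libraries. Weak genes have a mean below 10 CPM over the 5 libraries. The test was checked on simulated data. Libraries of a group differed beyond sampling noise, with a chi-square per gene from 2.40 to 7.67. Both depletions share their control libraries, so control levels are given as CPM only, on 1 scale for 9 libraries.

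The members and the gene lists were chosen with earlier results of these data known. The naming rule took rpoa-2, eef-1A.1 and col-10, every RNA polymerase I subunit, the 8 largest differences in each direction among called genes that averaged 10 CPM or more and whose groups did not overlap, 4 in each direction below 10 CPM, and the 3 genes of smallest p in each list with at least 5 tested and 2 called genes. Alternatives were DESeq2 1.42.0, 2 other scalings, 3 other filters, unlisted counts as 0 or 2, all 9 libraries in the fit, thinning to 781648 counts, a replicate block and the loss of each library. With 1 global library left, that library is assumed to vary like the hypodermal ones.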

Additional observations from a re-analysis of the deposited data

How the results depend on the processing

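Of 16 alternatives, all kept the direction of every call they shared with the 507. The count of calls was 506 with DESeq2 size factors, 510 with total-count scaling, which moved the median of all genes to -0.08, 383 with DESeq2, 442 without a filter, 526 with filterByExpr, 489 for genes listed in all 5 libraries, 503 and 472 with unlisted counts as 0 and 2, 361 with all 9 libraries in the fit and 427 after thinning. Without 1 library it ran from 221 to 500, with 145 to 330 higher and 73 to 170 lower, fewer samples being part of each such fit. Replicate numbers are shared by both groups, but nothing labels what a number stands for. The replicate block gave 679 calls, 472 of them among the 507. Deviations from the group mean correlated at 0.185 and 0.127 between same-numbered libraries. The deviations of the 2 global libraries mirror each other, so these values cannot show whether libraries were paired.

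The 36 weak calls became 7 with DESeq2, 63 with all 9 libraries in the fit and 12 after thinning, and the cause was not tested. They became 19 with filterByExpr and 5 for genes listed in all 5 libraries, where fewer weak genes were tested, and 6 to 14 without 1 library. The sign of col-10 (-0.02) turned after thinning (0.01458) and ranged from -0.21 to 0.19 without 1 library. That of rpoa-12 (-0.04) turned after thinning (0.0007677) and ranged from -0.42 to 0.44. Of 126 named genes 110 were called, and 58 were called in every alternative that tested them. Counts below 3 are not listed, so levels beneath that floor cannot be compared.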

Other observations

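Sets named here were picked after their values were seen and were not tested as sets, and their counts stand beside 2.77% of all genes and 7.06% of genes above 100 CPM called higher. The propionate shunt, by which the worm breaks down propionate without vitamin B12, had 4 of its 5 genes higher in hypodermal than in global depletion, and all 4 calls were kept when any 1 of the 5 libraries was left out. Besides acdh-1, the dehydrogenase gene hphd-1 had 164, 195.8 and 223 CPM in the hypodermal libraries, against 36.6 and 50.03 CPM in the global libraries, with 303 and 254 CPM in the 24 h controls (log2 fold change 2.16 ± 0.25, adjusted p = 2.99e-14). The hydrolase gene hach-1 had 102, 141 and 111 CPM in the hypodermal libraries, against 34.3 and 38.6 CPM in the global libraries (log2 fold change 1.70 ± 0.27, adjusted p = 8.81e-08), and the hydratase gene ech-6 had 162.8, 192 and 196.1 CPM in the hypodermal libraries, against 77.8 and 80.7 CPM in the global libraries (log2 fold change 1.21 ± 0.23, adjusted p = 2.83e-05). In all 4 the 24 h controls lay above the global libraries. The last gene, alh-8, did not pass the test (log2 fold change 0.04, adjusted p = 0.96). None of the 6 genes of the vitamin B12-dependent route was called, although 4 of the 6 log2 fold changes were above 0, with a median of 0.34. The largest was that of pcca-1 (log2 fold change 0.61, adjusted p = 0.0649), whose groups did not overlap. Methionine cycle genes were higher in 3 of 7 tested, led by mtrr-1, for methionine synthase reductase, with 84.8, 101 and 92.9 CPM in the hypodermal libraries, against 30.5 and 40.4 CPM in the global libraries (log2 fold change 1.39 ± 0.28, adjusted p = 5.77e-05), but that call was lost without global replicate 1 (adjusted p = 0.0691), and mthf-1 and metr-1 were each lost without 3 of the 5 libraries. Genes of the glycine cleavage system were higher in 3 of 5, of which gcst-1 (1.49) and gldc-1 (1.196, both log2 fold changes) were kept and gcsh-2 was lost without hypodermal replicate 2 or 3 or global replicate 2 (adjusted p = 0.284, 0.281 and 0.626).

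Of 9 genes that attach the epidermis to cuticle and muscle, 3 were higher in hypodermal than in global depletion. The fibrillin-related matrix receptor gene mua-3 had 567, 501 and 391 CPM in the hypodermal libraries, against 143 and 150.1 CPM in the global libraries, with 198 and 295 CPM in the 24 h controls (log2 fold change 1.74 ± 0.22, adjusted p = 2e-12). Every hypodermal library thus stood above every global and 24 h control library, and the call was kept. The intermediate filament gene mua-6 had 469, 539 and 377 CPM in the hypodermal libraries, against 234.8 and 234 CPM in the global libraries (log2 fold change 0.98 ± 0.21, adjusted p = 0.000244) and was lost without either global library (adjusted p = 0.0735 and 0.077). The call of vab-19 (log2 fold change 0.91, adjusted p = 0.0224) was kept only without hypodermal replicate 2. Among 10333 neighbouring pairs of tested genes without overlap, 44 had both genes called. The second gene was called in 9.48% of the 464 pairs whose first gene was called, against 4.35% of all 10333 pairs, and this was not tested. Of the 44 pairs, 17 had both genes higher, 20 had both lower and 7 had opposite directions. The 44 included elo-5 with elo-6, acdh-10 with acdh-7, hsp-16.2 with hsp-16.41 and, in opposite directions, clec-51 with clec-52 and pgp-8 with pgp-6.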
